A study of Mus musculus with 38 samples.

Results

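Cytochrome P450 enzymes (Cyp genes) and glutathione S-transferases (Gst genes) were examined for a response to chow containing anle138b. The set held every protein-coding mouse gene whose symbol begins with Cyp and a number, or with Gsta, Gstk, Gstm, Gsto, Gstp, Gstt or Gstz, without Cyp51 and the Cyp1 genes. It came to 118 of the 48709 counted genes, of which 96 are Cyp and 22 are Gst genes. RNA had been sequenced from the hippocampus of 38 C57BL/6 mice in 8 groups. Mice were WT or carried the APPPS1ΔE9 transgenes (genotype APPdelta9 in the labels), which encode mutant forms of human amyloid precursor protein and presenilin, and were fed placebo chow or chow with the agent anle138b, a small molecule tested against protein aggregation. The pre-plaque group was analyzed at 6 months and held 4 WT mice on placebo, 4 WT mice on anle138b, and 4 and 4 APPPS1ΔE9 mice on the same chows. The post-plaque group was analyzed at 10 months and held 5 and 5 WT and 5 and 7 APPPS1ΔE9 mice, placebo first. The tissue was whole hippocampus, so that fewer cells of a type and less RNA per cell cannot be told apart.

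Total counts were 15847985 to 31895808 per mouse. App, which checks the genotype, was at 1516 to 1806 CPM (read counts scaled to equal library size) in the 18 WT mice and at 3235 to 4316 in the 20 APPPS1ΔE9 mice. The 4 placebo-treated WT mice of 6 months carry a transgenic genotype in one label and WT in their titles, and their App level was that of the other WT mice. The study describes its mice as male, but 12 of the 38 libraries had Y-linked transcripts at 1.89 CPM or less, against 169 to 405 CPM in the others. Of these 12 mice, 11 were WT and 1 was an anle138b-treated APPPS1ΔE9 mouse of 10 months, so every comparison of genotypes also compares different shares of such mice. The libraries of placebo-treated APPPS1ΔE9 mice were all on lane 5 and those of anle138b-treated APPPS1ΔE9 mice of 6 months all on lane 6, and at that age lane and chow cannot be told apart in this genotype. In none of the 4 comparisons of genotypes did WT and APPPS1ΔE9 libraries share a lane, so lane and genotype cannot be told apart in any of them. Ttr, a transcript of the choroid plexus, ranged from 12.9 to 7450 CPM between mice, and its summed marker list is given beside the results it touches.

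P450s are heme enzymes that insert oxygen into lipids, steroids and drugs, with electrons from P450 reductase in the endoplasmic reticulum or from ferredoxin in mitochondria. Glutathione S-transferases couple glutathione to reactive or oxidized compounds. In the liver, the nuclear receptors CAR and PXR switch on P450 genes of the Cyp2b, Cyp2c and Cyp3a subfamilies when a drug is present, and the factor NRF2 switches on many Gst genes under oxidative or electrophilic stress. In the brain, the best known members have duties of their own: Cyp46a1 clears cholesterol from neurons, and the Cyp26 enzymes remove retinoic acid.

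Promoter sequence was read for 4 members, since they lead the results below: Gstm5 and Cyp46a1 as the most abundant gene of each kind, and Cyp26a1 and Cyp26b1 as a pair of related enzymes with wide variation between mice of 10 months. The bases run 5′ to 3′ on the strand of the gene and stop 1 base before its annotated start (RefSeq, GRCm38.p6). Capitals mark a match to TGACNNNGC, the core of the antioxidant response element that NRF2 binds, in Gstm5 (chr3:107895604-107895820, plus strand), and to GCGTG, the core bound by the Ah receptor, in Cyp46a1 (chr12:108334066-108334315, plus strand). They mark a direct repeat of GTTCA with a spacer of 6 bases, read on the opposite strand, as in a retinoic acid response element, in Cyp26a1 (chr19:37697558-37697797, plus strand), and the TATA box TATAAA in Cyp26b1 (chr6:84593909-84594060, minus strand). Spacers are counted here between the GTTCA stretches, and this repeat is the one named as spaced by 5.
Gstm5: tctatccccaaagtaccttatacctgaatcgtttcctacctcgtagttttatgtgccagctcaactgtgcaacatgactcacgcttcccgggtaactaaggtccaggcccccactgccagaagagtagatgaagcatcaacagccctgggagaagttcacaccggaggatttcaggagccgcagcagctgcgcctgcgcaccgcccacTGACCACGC
Cyp46a1: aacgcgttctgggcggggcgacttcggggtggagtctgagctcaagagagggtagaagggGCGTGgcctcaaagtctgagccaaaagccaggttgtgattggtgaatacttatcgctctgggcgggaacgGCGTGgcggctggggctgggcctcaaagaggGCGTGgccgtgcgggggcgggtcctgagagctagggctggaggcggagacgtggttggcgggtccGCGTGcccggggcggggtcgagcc
Cyp26a1: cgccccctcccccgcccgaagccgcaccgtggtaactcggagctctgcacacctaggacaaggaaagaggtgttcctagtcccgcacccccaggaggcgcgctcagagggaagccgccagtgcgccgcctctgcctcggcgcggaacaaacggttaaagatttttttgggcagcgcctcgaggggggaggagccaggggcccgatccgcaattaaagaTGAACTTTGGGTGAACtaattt
Cyp26b1: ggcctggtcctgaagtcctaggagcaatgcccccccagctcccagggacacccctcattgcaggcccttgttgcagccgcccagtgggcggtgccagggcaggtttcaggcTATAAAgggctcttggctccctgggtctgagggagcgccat
In windows of equal length on both strands, 93 members had a promoter in the table. TGACNNNGC stood in the promoters of 10 of the 93 members (10.8%) and in 12.4% of all 32851 promoters. GCGTG was found for 20 members (21.5%) and in 32.4% of all promoters, and TATAAA for 35 members (37.6%) and in 13.6% of all. The repeat with a spacer of 6 bases was found for Cyp26a1 alone among the members, and in 0.0761% of all promoters. The same repeat with a spacer of 5 bases, named as spaced by 4, which CAR and PXR can bind, was found for 0 members and in 0.0396% of all. The motifs were matched separately, and a match may overlap one of another motif.

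Most members were hardly transcribed in the hippocampus. No read was counted for 13 of the 118 in any mouse, and another 55 never reached 10 reads in a mouse, while 42 had reads in all 38 mice. The filter on low counts left 45 members over all mice, 29 Cyp and 16 Gst genes. Compared per kilobase of exon, 5 genes carried 68.9% of the summed level of all members, and Gst genes carried 74.4%. The mean level was 108.6 CPM per kilobase for Gstm5 and 85.8 for Gstm1, both mu-class transferases. It was 42.5 for Gsta4, which conjugates aldehydes from lipid peroxidation, 41.5 for Cyp46a1 and 33.5 for Gstp1, the pi-class transferase. These 5 genes stood apart from those that followed, which were Gstm7 at 17.8, the omega-class Gsto1 at 12.4 and Cyp7b1, an oxysterol hydroxylase, at 11.7 CPM per kilobase. Cyp2d22 (9.74), Cyp2j9 (7.85), Gstz1 (7.83), an enzyme of tyrosine breakdown, and Gstm4 (7.002) completed the first 12. Between mice, single values overlapped for Gstm5 and Gstm1, and for Gsta4, Cyp46a1 and Gstp1, but not between Gstm1 and Gsta4 or between Gstp1 and Gstm7. Genes of the mu class and of the Gstp, Cyp2d and Cyp4f clusters are near copies of each other, and reads may have been divided between them.

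**Figure D1:**
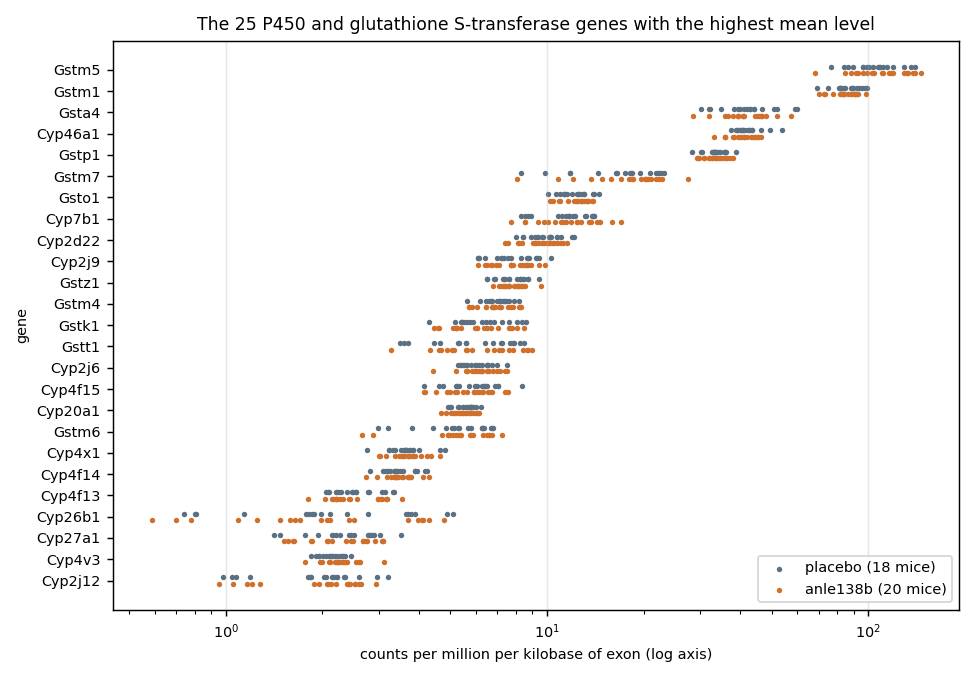
Level of the 25 members with the highest mean, in CPM per kilobase of exon on a log axis. Each point is a mouse, grey for placebo and orange for anle138b chow. The points of both chows overlap in each gene, and Cyp26b1 has the widest spread.

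Of 24 members regarded as CAR- or PXR-inducible in the liver, Gstm1, Gstt1, Gstm2 and Cyp3a13 had reads in every mouse and were tested. The other 20 had few reads on both chows, and together these had 115 reads in the 18 placebo-treated mice and 115 in the 20 anle138b-treated mice. Cyp2b10, the classical target of CAR, had 2 reads in placebo-treated and 8 in anle138b-treated mice. Cyp3a11, that of PXR, had 19 and 7. Cyp2c29 had 1 and 4 reads, and Gsta1 had 0 and 1. These numbers compare 428069023 reads in all placebo-treated mice with 499688135 in all anle138b-treated mice, where 3 reads correspond to 0.00701 and 0.006 CPM. Small changes of these genes were not detectable at this depth. Aromatase, Cyp19a1, which makes estrogen, had 56 and 66 reads, with 0 to 8 reads in a mouse. Over all 73 members that were not tested, the sums were 770 reads on placebo (1.8 CPM) and 812 on anle138b (1.63 CPM).

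The few reads of Cyp3a11 were not scattered. All 26 came from 5 mice of 6 months, which gave 13.0% of all reads in the series, with 13 and 6 reads in placebo-treated WT replicates 1 and 2, 2 each in anle138b-treated WT replicates 1 and 3, and 3 in anle138b-treated APPPS1ΔE9 replicate 3. The same 5 mice had Alb, the transcript of serum albumin made by hepatocytes, at 3.05 to 9.24 CPM, and no other mouse exceeded 0.284 CPM. This was not particular to Cyp3a11 among the inducible genes named above. Cyp2c29 had all of its 5 reads in these mice, and Cyp2b10 had 5 there and 5 in other mice. The only read of Gsta1 came from another mouse. Of the 5 hepatocyte markers, Serpina1a had 13 reads in all, found in the same 5 mice only, Apoa1 and Apob reached no more than 0.872 and 0.493 CPM in any mouse, and Ttr is also made by choroid plexus. The summed list, nearly all of it Ttr, was at 13.1 to 7450 CPM. The part of liver RNA in the reads of Cyp3a11, Cyp2c29 and Cyp2b10 was not tested. Chosen after their values were seen, 3 further genes had their highest count in a WT mouse of 6 months. Gstp3 had 29 of its 33 reads in anle138b-treated WT replicate 2 of 6 months. Cyp2g1, an olfactory P450, had 37 of 84 and Cyp2a5 had 17 of 94 in placebo-treated WT replicate 3 of 6 months, with the rest spread over other mice.

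Across all 38 mice, no member passed the test for a response to anle138b. edgeR's quasi-likelihood test, with the 4 strata of genotype and age taken out, called 0 of 45 members at a Benjamini-Hochberg adjusted p under 0.1 over all genes, and 0.011% of the 18232 genes tested. At an unadjusted p under 0.05 it gave 1 member, 2.22%, against 3.53% of all genes, and DESeq2 also called 0 members. Of the 45 log2 fold changes, 26 were above 0 and 19 below, from -0.27 to 0.16, with a median of 0.01 beside 0.00 for all genes. The 95% interval lay within 0.5 of 0 on the log2 scale for 38 members and within 1 for 44. The exception was Cyp26a1, with an interval from -1.19 to 0.64.

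The smallest unadjusted p belonged to Cyp4v3, a fatty acid hydroxylase, with a log2 fold change of 0.10 ± 0.05 (SE) and an interval from 0.00 to 0.19 (edgeR adjusted p = 0.9998). Gstm5 followed with 0.08 ± 0.06, Cyp46a1 with -0.06 ± 0.04, Cyp2d22 with -0.06 ± 0.05 and Gstt2 with 0.09 ± 0.09, on the same scale and with the same adjusted p. For abundant members the intervals were narrow, from -0.07 to 0.06 for Gstp1, -0.10 to 0.07 for Gstm1, -0.12 to 0.11 for Gsta4 and -0.14 to 0.02 for Cyp46a1. Among sterol enzymes, Cyp27a1 (-0.03 ± 0.11), Cyp7b1 (0.01 ± 0.09) and Cyp39a1 (0.02 ± 0.09) gave log2 fold changes near 0. Cyp3a13, the only Cyp3 gene that could be tested, was at -0.10 ± 0.16. Cyp11a1, which starts steroid synthesis, was at 0.12 ± 0.21, and Cyp2u1, Cyp4x1 and the orphan Cyp20a1 were at -0.01 ± 0.05, 0.01 ± 0.05 and -0.02 ± 0.04.

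**Figure D2:**
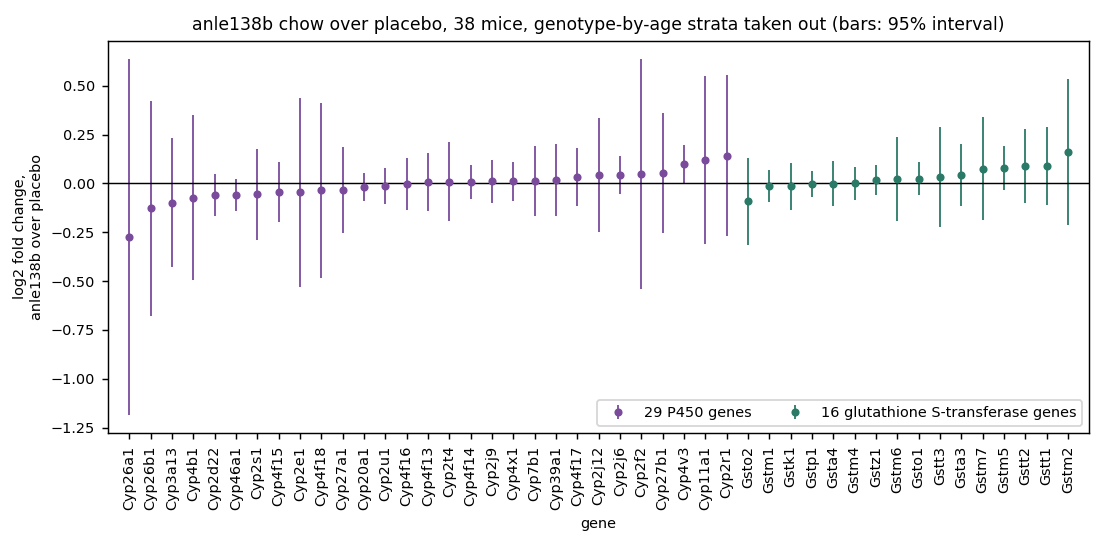
Log2 fold change of anle138b over placebo in the 45 tested members, with bars for the 95% interval. P450 genes are purple, glutathione S-transferases green, each sorted by value. All bars but that of Cyp4v3 cross 0, and Cyp26a1 has the widest, from -1.19 to 0.64.

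By role, the members again showed no common direction. Of 4 tested cholesterol and bile acid P450s, 2 had log2 fold changes above 0 and 2 below, with a median of -0.01. Of 8 tested transferases regarded as NRF2-inducible, 5 were above and 3 below, with a median of 0.01. The 4 tested of the CAR- and PXR-inducible genes were divided 2 and 2, with a median of 0.04. Both vitamin D enzymes, Cyp2r1 and Cyp27b1, were above 0 and both tested retinoic acid hydroxylases below, with medians of 0.10 and -0.20. None of these members was called, and 0 had an unadjusted p under 0.05.

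Within each genotype and age, edgeR also called 0 members, at an adjusted p under 0.1, in the 4 comparisons of anle138b with placebo. DESeq2 called Gstm5 in APPPS1ΔE9 mice of 6 months, where it called 205 of 31422 genes, and 0 members in the other comparisons of chow. The share of all genes called by edgeR was 0.0% in WT mice of 6 months, 0.0529% in APPPS1ΔE9 mice of 6 months, and 0.0% in both genotypes at 10 months. In the same order, an unadjusted p under 0.05 was reached by 2 of 44, 2 of 43, 1 of 44 and 1 of 42 members (4.55%, 4.65%, 2.27% and 2.38%), and by 1.85%, 13.1%, 1.25% and 1.48% of all genes. The direction was uneven between genotypes. Log2 fold changes were above 0 in 16 of 44 members in WT mice of 6 months (36.4%, against 50.5% of all genes) and in 13 of 44 in WT mice of 10 months (29.5%, against 50.2%). In APPPS1ΔE9 mice they were above 0 in 31 of 43 (72.1%, against 49.4%) at 6 months and in 29 of 42 (69.0%, against 51.7%) at 10 months. The medians were -0.02, -0.06, 0.07 and 0.05 for WT and then APPPS1ΔE9 mice of 6 and 10 months, beside 0.00 for all genes in each comparison. Members are not independent of each other, and these counts describe the mice at hand.

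**Figure D3:**
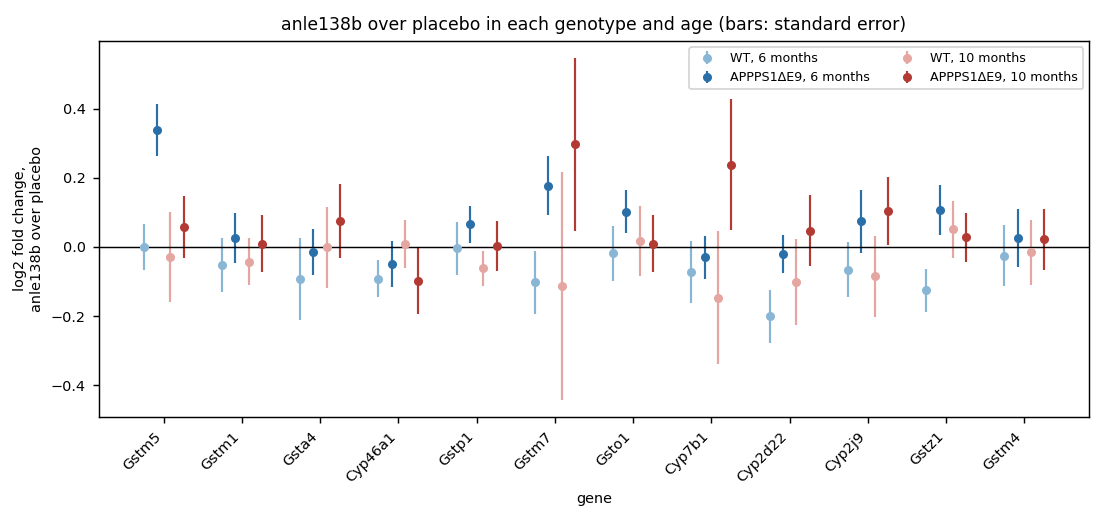
Log2 fold change of anle138b over placebo in the 12 members with the highest level, in each genotype and age, with bars for the standard error. Gstm5 in APPPS1ΔE9 mice of 6 months, at 0.34, lies farthest from 0.

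In WT mice of 6 months the smallest p belonged to Cyp4b1, which oxidizes fatty acids and some toxins and was sparsely expressed. It had 7, 5, 7 and 8 reads in the placebo-treated and 18, 12, 10 and 12 in the anle138b-treated mice, so that values were higher in all 4 treated mice (0.450 to 0.747 CPM) than in the 4 others (0.205 to 0.367 CPM). The log2 fold change was 1.10 ± 0.31 (edgeR adjusted p = 0.9998). Only the treated mice reached the 10 reads of the filter on low counts, so Cyp4b1 was tested through the group where it was high. Its p and its separate ranges therefore carry no weight for a response. Cyp2d22, the mouse counterpart of a human drug-metabolizing P450, was at 41.9, 40.1, 35.98 and 37.6 CPM on placebo and 35.8, 28.9, 36.2 and 32.7 on anle138b, with a log2 fold change of -0.20 ± 0.08 (edgeR adjusted p = 0.9998). Gstz1 was the third at -0.12 ± 0.06. The highest treated mouse of Cyp2d22 lay above the lowest mouse on placebo. In APPPS1ΔE9 mice of 6 months Cyp4b1 did not pass the filter, with 12, 9, 5 and 8 reads on placebo and 6, 12, 12 and 9 on anle138b. Cyp2d22 was at -0.02 ± 0.06 there. Both chows were fully separate for 2 of 44 members, Cyp4b1 and Cyp4f14, beside 1.68% of all genes.

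At 10 months, Cyp2u1, a fatty acid hydroxylase of brain, had the smallest p in WT mice at -0.16 ± 0.07 (edgeR adjusted p = 1.0), and the 5 anle138b-treated mice did not overlap with the 5 placebo-treated mice. It was the 1 such member of 44, beside 0.253% of all genes. The anle138b-treated libraries were all on lane 4, and the placebo-treated ones were on lane 3 apart from replicate 5. Lane and chow can therefore hardly be told apart in these mice. Cyp4f18 (0.40 ± 0.25) and Cyp2s1 (-0.27 ± 0.20) followed. In APPPS1ΔE9 mice Cyp4v3 came first with 0.23 ± 0.10 (edgeR adjusted p = 0.999). It was at 7.98, 7.45, 6.998, 8.31 and 8.75 CPM on placebo and between 8.01 and 11.9 CPM on anle138b, with a median of 8.93. The highest treated mouse was replicate 3, the only mouse of this comparison without Y-linked transcripts, and the 2 ranges overlapped. Ranges were separate for 0 of 42 members there, beside 0.0468% of all genes. Cyp4f14 (0.11 ± 0.07) and Cyp2t4 (0.27 ± 0.16) came next.

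Gstm5, the member with the highest level, gave the smallest p of any member. At 6 months it was at 146, 123, 142 and 123 CPM in placebo-treated APPPS1ΔE9 mice, and at 152, 169, 176 and 186 CPM in those on anle138b. It was at 165, 174, 153 and 179 CPM in placebo-treated and at 165, 148, 168 and 179 CPM in anle138b-treated WT mice. The placebo-treated APPPS1ΔE9 mice were therefore the lowest of the age, below every mouse of the other 3 groups, which overlapped with each other. The log2 fold change of anle138b over placebo was 0.34 ± 0.08 with an interval from 0.18 to 0.50 (unadjusted p = 0.000694, edgeR adjusted p = 0.247). It was 0.00 ± 0.07 in WT mice, and the difference between the genotypes was 0.35 ± 0.10 (edgeR adjusted p = 0.585), so that no difference of response was shown. Other settings changed the call. The adjusted p for anle138b in APPPS1ΔE9 mice was 0.00959 with DESeq2, 0.00519 in edgeR with no filter on low counts (120 of 31422 genes called), and 0.0392 without placebo-treated APPPS1ΔE9 replicate 1 (317 of 17196 genes called), with log2 fold changes of 0.30 to 0.39 over all settings. It was 0.66 with the first principal component of the mice as a covariate.

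The same 4 placebo-treated mice enter the comparison of genotypes, in which Gstm5 was lower in APPPS1ΔE9 mice by a log2 fold change of -0.31 ± 0.07 (edgeR adjusted p = 0.294), with WT mice on lane 4 and APPPS1ΔE9 mice on lane 5. There, the adjusted p was 0.0349 with DESeq2, 0.00808 with no filter and 0.0564 without placebo-treated APPPS1ΔE9 replicate 1 (205 of 16930 genes called). The value was -0.16 (edgeR adjusted p = 1.0) once Y-linked expression was a covariate. It was lacking in 3 of 4 WT and in 0 of 4 APPPS1ΔE9 mice of this comparison. At 10 months the means of Gstm5 were 126 ± 14.0 (SD, n = 5), 123 ± 24.6 (n = 5), 120 ± 16.3 (n = 5) and 125 ± 11.6 CPM (n = 7) in placebo- and anle138b-treated WT and then APPPS1ΔE9 mice, which differed by less than the spread within any group. Summed choroid plexus markers, 8 genes with Ttr as the most abundant, were at 70.1 to 6700 CPM (median 462) in placebo-treated and 181 to 7610 CPM (median 6530) in anle138b-treated APPPS1ΔE9 mice of 6 months, with 0 of 8 called, and their part in the Gstm5 values was not tested.

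Gstm7, a neighbour of Gstm5 on chromosome 3, was at 28.1, 26.5, 29.05 and 23.04 CPM in placebo-treated and 27.2, 33.1, 29.5 and 32.3 CPM in anle138b-treated APPPS1ΔE9 mice of 6 months. Those groups overlapped, and the log2 fold change was 0.18 ± 0.08 (edgeR adjusted p = 0.400). Cyp11a1 was at 1.42, 1.26, 0.785 and 1.04 CPM on placebo and 1.36, 1.76, 1.84 and 1.67 on anle138b in the same mice, at 0.52 ± 0.21 (edgeR adjusted p = 0.350). Of 16 Gst genes tested there, 14 had log2 fold changes above 0, with a median of 0.14, where 49.4% of all genes were above 0. Gstm5 was the 1 member of 43 whose groups did not overlap, beside 6.01% of all genes.

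**Figure D4:**
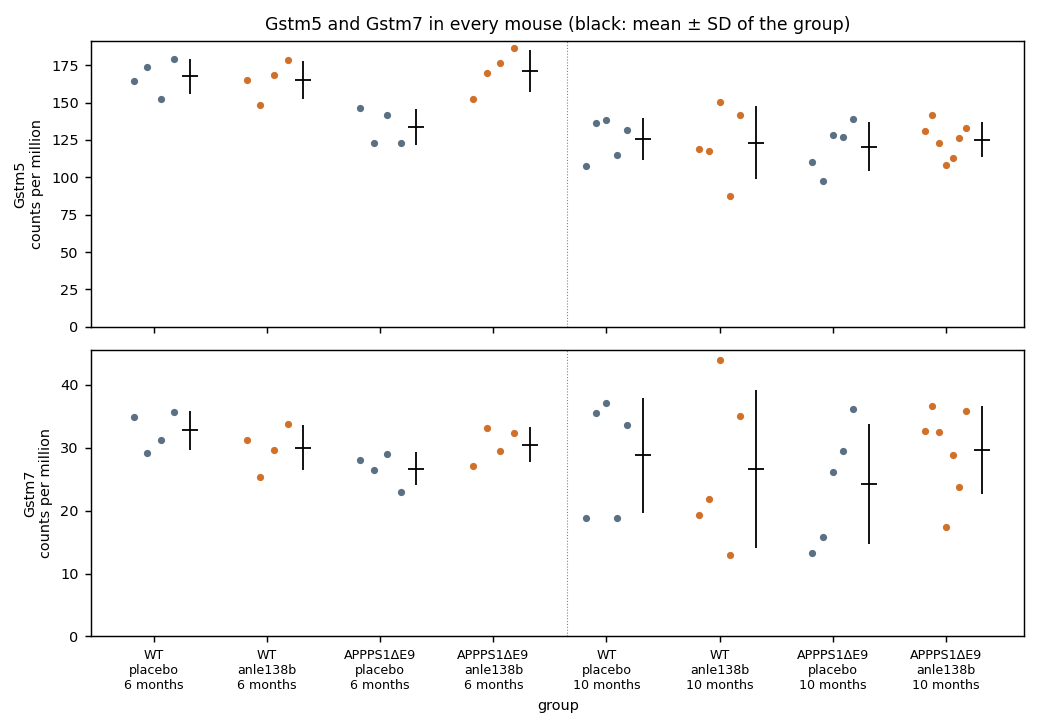
Gstm5 and Gstm7 in CPM in every mouse of the 8 groups, with axes from 0. Points are mice, grey for placebo and orange for anle138b, and black marks give the mean ± SD. At 6 months the 4 placebo-treated APPPS1ΔE9 mice are the lowest for Gstm5, at 123 to 146 CPM, and at 10 months the groups overlap for both genes.

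Genotype, too, gave 0 called members on either chow. At 6 months on placebo, edgeR called 0 of 43 members and 0.0715% of all genes at an adjusted p under 0.1, and 6 members (14.0%) against 11.1% of all genes had an unadjusted p under 0.05. Besides Gstm5, these were Gstm7 (-0.28 ± 0.09, adjusted p = 0.358), the mitochondrial and peroxisomal transferase Gstk1 (-0.31 ± 0.11, adjusted p = 0.386), Cyp2e1, which oxidizes ethanol and was chosen after its values were seen (-1.39 ± 0.51, adjusted p = 0.390), Cyp4f14 (-0.23 ± 0.10, adjusted p = 0.426) and Cyp2u1 (0.27 ± 0.12, adjusted p = 0.429), as log2 fold changes of APPPS1ΔE9 over WT. With DESeq2 and with no filter on low counts, 2 members were called each, Gstm5 together with Cyp2g1 among 89 of 31080 genes called, or with Cyp2a5 among 110 of 31080. Neither Cyp2g1 nor Cyp2a5 passed the filter of the main test. Cyp2g1 had 2, 2, 37 and 9 reads in WT and 0, 0, 1 and 0 in APPPS1ΔE9 mice. Cyp2a5 had 6, 5, 17 and 4 reads in WT and 0, 1, 2 and 1 in APPPS1ΔE9 mice. Both had their highest count in WT replicate 3. Gstk1 was at 12.3, 12.6, 10.7 and 11.8 CPM in WT and 11.2, 7.92, 9.48 and 9.19 CPM in APPPS1ΔE9 mice, where only the highest transgenic mouse reached into the WT range. Cyp2e1 was at 1.27, 0.860, 0.254 and 0.504 CPM in WT and 0.163, 0.315, 0.449 and 0.181 CPM in APPPS1ΔE9 mice, and its 2 highest values were those of the WT mice with reads of Cyp3a11 and Alb. It had 32, 21, 7 and 11 reads in WT and 4, 8, 8 and 4 in APPPS1ΔE9 mice. Only WT mice reached 10 reads, so Cyp2e1 was tested mainly through the group where it was high. Its p, 1 of the 6 counted above, therefore carries no weight for a difference between the genotypes. Values did not overlap between genotypes for 4 of 43 members, beside 6.38% of all genes. Log2 fold changes were above 0 in 2 and below 0 in 14 of the 16 Gst genes, with a median of -0.12, where 50.8% of all genes were above 0. Summed choroid plexus markers had a median of 5210 CPM (199 to 7780) in WT mice and of 462 CPM (70.1 to 6700) in APPPS1ΔE9 mice, with 0 of 8 genes called, and their part in these values was not tested. Summed microglial markers were at 334 to 446 CPM in these APPPS1ΔE9 mice against 304 to 351 in WT mice, with Cst7 and Itgax called higher of 8 genes.

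On anle138b at 6 months, 0 of 44 members were called, beside 0.047% of all genes, and 2 (4.55%) against 5.64% of all genes had an unadjusted p under 0.05. They were Cyp4b1 at -0.78 ± 0.30 and Cyp2d22 at 0.16 ± 0.07 (both edgeR adjusted p = 0.836), the 2 genes that led the comparison of chows in WT mice and share its anle138b-treated mice. The vitamin D hydroxylase Cyp2r1 was the third at -1.31 ± 0.63, where anle138b-treated WT replicate 2 was at 2.75 CPM and the other 15 mice of the age were at 0.220 to 0.954 CPM. Cyp4b1 was the 1 member with separate ranges, beside 3.72% of all genes. It passed the filter on low counts only through the anle138b-treated WT mice, in which it was high. Of the 16 Gst genes, 9 had log2 fold changes above 0 and 7 below, with a median of 0.02, where 48.2% of all genes were above 0. At 10 months on placebo, 0 of 43 members were called, beside 0.324% of all genes, and 0 had an unadjusted p under 0.05, against 4.1% of all genes. DESeq2 called 0 there as well. The smallest p values were those of Cyp2r1 (-0.42 ± 0.21), Gstt2 (-0.33 ± 0.19) and Gsta3 (-0.23 ± 0.15). Of the 16 Gst genes, 1 had a log2 fold change above 0 and 15 below, and the median was -0.14, where 49.0% of all genes were above 0. At 10 months on anle138b, 0 of 42 members were called, beside 0.723% of all genes, and 1 (2.38%) against 5.78% of all genes had an unadjusted p under 0.05. It was Gstm6, at -0.27 ± 0.09 (edgeR adjusted p = 0.516), followed by Cyp4f14 (0.17 ± 0.08) and Cyp2s1 (0.32 ± 0.17). The Gst genes were divided into 6 above and 10 below 0, with a median of -0.07, where 49.0% of all genes were above 0. At 10 months, 0 members had separate ranges on either chow, beside 1.41% of all genes on placebo and 0.892% on anle138b. DESeq2 called 0 members on anle138b at either age. With Y-linked expression as a covariate, Cyp4v3 was called, at 0.34 ± 0.08 (edgeR adjusted p = 0.0948), among 299 of 17151 genes called at 10 months.

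Whether the response to anle138b differed between the genotypes was tested by an interaction term, and 0 members were called at either age, as for all genes (0.0%). An unadjusted p under 0.05 was reached at 6 months by 4 of 44 members (9.09%, against 7.99% of all genes). These were Gstm5, Cyp4b1 (-1.24 ± 0.42), Gstz1 (0.24 ± 0.09) and Gstm7 (0.29 ± 0.13), with edgeR adjusted p values of 0.585 to 0.618. Cyp4b1 passed the filter on low counts only through the anle138b-treated WT mice, in which it was high. At 10 months an unadjusted p under 0.05 was reached by 0 of 45, against 2.3% of all genes, and DESeq2 called 0 members at both ages. The smallest p values at 10 months were those of Cyp2u1 (0.15 ± 0.10), Cyp26a1 (-2.27 ± 1.497) and Cyp4f18 (-0.77 ± 0.54).

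Some members varied widely between mice of 10 months within a group. Cyp26b1, which inactivates retinoic acid, was at 7.87 to 14.8 CPM in the 16 mice of 6 months, but at 3.15 to 27.2 CPM in the 22 mice of 10 months, with 10 mice at 3.15 to 8.45, 12 at 19.5 to 27.2 and none between. Both levels occurred in every group, the upper one in 3 of 5 WT mice on placebo, 2 of 5 WT mice on anle138b, and 3 of 5 and 4 of 7 APPPS1ΔE9 mice on these chows. Cyp26b1 was at 4.33, 26.1, 27.2, 3.98 and 19.5 CPM in placebo-treated WT mice, where its relative Cyp26a1 was at 2.01, 0.0394, 0.0367, 0.899 and 0 CPM in the same order. In anle138b-treated WT mice Cyp26b1 was at 3.15, 4.18, 21.996, 3.74 and 21.9 CPM and Cyp26a1 at 1.65, 0.547, 0.148, 1.497 and 0.126 CPM. In placebo-treated APPPS1ΔE9 mice the values were 4.29, 6.08, 20.8, 20.1 and 19.7 CPM for Cyp26b1 and 1.63, 1.78, 0.412, 0.0402 and 0 CPM for Cyp26a1. In anle138b-treated APPPS1ΔE9 mice Cyp26b1 ranged from 5.83 to 25.6 CPM (median 19.8) and Cyp26a1 from 0 to 0.870 CPM (median 0.162). Within each group, the mice with the higher level of Cyp26b1 thus had the lower level of Cyp26a1, apart from replicate 5 of the last group. It was low for Cyp26b1, with Cyp26a1 at 0.162 CPM, below the 0.210 CPM of replicate 1. Replicates 5 and 6 of that group, at 0.162 and 0.270 CPM, also lay below a mouse of another group. This was replicate 3 of the APPPS1ΔE9 mice on placebo, high for Cyp26b1 with Cyp26a1 at 0.412 CPM. Neither gene was called for chow or genotype.

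**Figure D5:**
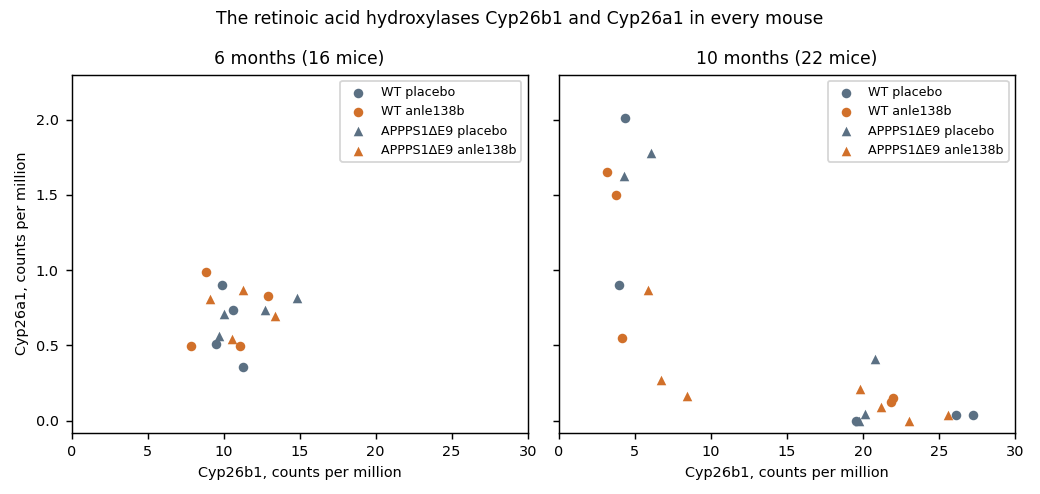
Cyp26a1 against Cyp26b1 in CPM, with a point for each mouse of 6 months (left) and 10 months (right). Circles are WT and triangles APPPS1ΔE9 mice, grey for placebo and orange for anle138b. At 10 months the mice lie at 3.15 to 8.45 or at 19.5 to 27.2 CPM of Cyp26b1, with all 4 groups in both places.

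Several other members varied along with Cyp26b1 in WT mice of 10 months. Gstm7 was at 18.9, 35.6, 37.1, 18.8 and 33.6 CPM in placebo-treated WT mice and at 19.4, 21.9, 43.96, 12.9 and 35.1 in anle138b-treated WT mice, in the order used above. Cyp11a1 was at 1.40, 4.33, 4.04, 1.93 and 2.74 CPM and then at 1.49, 1.99, 4.32, 1.34 and 3.99 CPM in these mice. The WT mice that were high for Cyp26b1 were high for both. Among markers, Prox1, a gene of dentate granule neurons, was at 88.5, 176, 177, 69.04 and 204.5 CPM in placebo-treated WT mice. Dcn, 1 of the 8 listed markers of leptomeninges and fibroblasts, was at 143, 26, 26.06, 152 and 17.7 CPM. The summed hippocampal neuron markers (8 genes, Prox1 among them) were at 2036, 2542, 2544, 2297 and 2600 CPM in these mice. In anle138b-treated WT mice they were at 2339, 2586, 2458, 2419 and 2427 CPM, highest in replicate 2, a mouse low for Cyp26b1. The summed leptomeningeal markers were at 347, 149, 135, 224 and 110 CPM on placebo. On anle138b they were at 176, 116, 155, 237 and 149.5 CPM, lowest in replicate 2, a mouse low for Cyp26b1. Dcn was at 111, 66.4, 27.6, 141 and 28 CPM in these anle138b-treated WT mice, so the sum did not follow Dcn in all of them. In placebo-treated WT mice the summed markers of thalamus and habenula (5 genes) were at 20.19, 90.64, 72.9, 22.21 and 83.32 CPM. Those of oligodendrocytes (6 genes) were at 3170, 7690, 6286, 3154 and 5202 CPM, so that both were high where Cyp26b1 was high. In WT mice on anle138b the sums were 23.51, 20.85, 85.07, 25.14 and 66.81 CPM for thalamus and habenula and 2928, 3953, 7368, 2372 and 6612 CPM for oligodendrocytes, again high in the mice that were high for Cyp26b1. Cyp11a1 and both sums followed Cyp26b1 in placebo-treated APPPS1ΔE9 mice, but not fully in those on anle138b, where replicates 4 to 6 were low for Cyp26b1. In replicates 1 to 7, Cyp11a1 was at 1.89, 5.42, 4.96, 1.04, 1.82, 2.36 and 4.05 CPM. The sums were 94.06, 88.11, 43.24, 25.8, 56.94, 25.74 and 102.5 CPM for thalamus and habenula. For oligodendrocytes they were 5923, 6238, 6891, 2946, 5897, 3712 and 5545 CPM. Over all 10-month mice, summed leptomeningeal markers (8 genes) ranged from 49.0 to 347 CPM, and the part of cell composition in the Cyp26 values was not tested. With the first principal component of the mice within each age as a covariate, which took up 34% of the variance at 6 months and 47% at 10 months, 0 members were called in all 11 comparisons. Gstp1, in contrast, varied little, at 43.7 to 57.3 CPM over the 22 mice, and Cyp46a1 was at 109.1 to 177 CPM.

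At 6 months, Gstm6 showed a similar spread inside the groups. In WT mice it was at 6.38, 13.3, 10.5 and 7.57 CPM on placebo and 12.9, 9.75, 5.27 and 13.4 CPM on anle138b. In APPPS1ΔE9 mice it was at 5.93, 13.5, 12.5 and 12.7 CPM on placebo and 5.69, 10.7, 11.5 and 13.2 CPM on anle138b. In each group, 1 mouse was therefore at 5.27 to 6.38 CPM. At 10 months it was at 8.80 to 14.4 CPM in all 22 mice.

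Ages were compared by description only, since age and cohort cannot be told apart. Of the 45 members, 0 had all 10-month mice above all 6-month mice and 0 had all of them below, beside 1.68% and 0.0878% of all genes. The medians of Cyp3a13 were 0.716 CPM at 6 months and 1.68 CPM at 10 months, and those of Cyp27b1, which activates vitamin D and was chosen after its values were seen, were 0.441 and 1.03 CPM. Gstt1, a theta-class transferase, was at 5.01 to 11.9 CPM at 10 months and at 8.52 to 13.7 CPM at 6 months.

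Genes that work with these enzymes were not called for chow either. They were 78 genes for receptors and regulators, electron donors, other oxidative and conjugating enzymes, glutathione supply and drug transporters. Over all mice, 71 were tested and 0 were called for anle138b, and 3 had an unadjusted p under 0.05, all lower, which were the P450 electron donors Fdxr (-0.11 ± 0.05) and Por (-0.07 ± 0.03) and the transporter Abcc5 (-0.06 ± 0.03), each with an edgeR adjusted p of 0.9998. In the comparisons within a genotype and age, 0 of 68 or 69 were called, and 14 of 69 in APPPS1ΔE9 mice of 6 months had an unadjusted p under 0.05, 9 higher and 5 lower, beside 13.1% of all genes. The receptor PXR (Nr1i2) was at 0 to 0.119 CPM and CAR (Nr1i3) at 0.0917 to 0.610 CPM, whereas NRF2 (Nfe2l2) was at 13.7 to 27 CPM. The 1 call in any comparison was Ugt1a7c, a glucuronosyltransferase, which was higher in anle138b-treated APPPS1ΔE9 than in anle138b-treated WT mice of 10 months (log2 fold change 1.23 ± 0.19, edgeR adjusted p = 0.0083). It was 1 of 68 tested, beside 0.723% of all genes, and was sparse, at 0.315 to 1.23 CPM with 632 reads in all mice. On placebo at 10 months 0 of 69 were called. The genotypes shared no lane there.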

How the data were processed

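The authors isolated total RNA from hippocampus, prepared TruSeq mRNA libraries, mapped reads to mm10 with STAR and deposited raw HTSeq read counts per gene and mouse (intersection-nonempty mode). The annotation release and strand setting are not given in the sources used here, so antisense and overlapping genes are uncertain. Members and lists were chosen with earlier results of these data known. Symbols came from GENCODE M21, which held 48349 of 48709 genes. From the deposited counts, genes passing filterByExpr (minimum count 10, minimum total 15) were TMM-normalized and tested with the quasi-likelihood test of edgeR 4.0.16 in R 4.3.3, and called at a Benjamini-Hochberg adjusted p under 0.1 over all genes. Values are log2 fold changes ± standard error (log2 change over the square root of F). DESeq2 1.42.0 was an alternative. CPM used TMM-scaled totals. Depth was 15847985 to 31895808 counts per mouse, and floors of 3 counts cover counting error only. Members named are the 12 with the highest level, those with the smallest p in a comparison, and a list by role. Gstp3, Cyp2g1, Cyp2a5, Cyp2e1 and Cyp27b1 were chosen after their values were seen. Fits were tested on simulated data. Groups came from titles and labels, and no mouse was left out. Nothing names separate litters, so p-values measure the spread between these mice. Counts differed between mice of a group by more than sampling noise in all 75 pairs (chi-square per degree of freedom 3.17 to 65.3).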

Additional observations from a re-analysis of the deposited data

Results flagged for a closer look

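Of 96 groups of mice examined for 12 members, 6 held a mouse whose distance from its nearest neighbour was large for the range of the group, where chance gives about 1 in 20. Cyp11a1 was at 2.9 CPM in placebo-treated WT replicate 3 of 6 months, with the next mouse at 1.43. Cyp26a1 was at 0.87 CPM in anle138b-treated APPPS1ΔE9 replicate 4 of 10 months, with the next at 0.27. Cyp4b1 was at 0.847 CPM in anle138b-treated WT replicate 1 of 10 months, with the next at 0.351. Cyp4v3 was at 7.6 CPM in anle138b-treated WT replicate 2 of 6 months, below the next at 8.52. Gstk1 was at 9.56 CPM in anle138b-treated APPPS1ΔE9 replicate 4 of 6 months, below the next at 11.2, and at 9.77 CPM in placebo-treated WT replicate 2 of 10 months, above the next at 8.43. No reason for these values was tested.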

How the results depend on the processing

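The number of called members, 0 in each of the 11 comparisons, was recomputed under 92 alternatives beside leaving out single mice and was also 0 in 87 of them, including an adjusted p under 0.05 in all 11. It was 1 with DESeq2 and 1 with no filter on low counts for anle138b in APPPS1ΔE9 mice of 6 months, 2 with DESeq2 and 2 with no filter for genotype on placebo at 6 months, and 1 with Y-linked expression as a covariate for genotype on anle138b at 10 months. The cause was not tested. Leaving out each mouse in turn (152 fits) gave 0 to 1 called members in those comparisons at 6 months, with 1 in both without placebo-treated APPPS1ΔE9 replicate 1, and 0 in the other 9. Single members changed sign in 2 of 292 values. Gstm5 over all mice was at -0.02 with lane within age as a covariate, and Cyp2e1 for genotype on placebo at 6 months was at 0.11 with the Y-linked covariate. The running number of a library was also used as a replicate block, which gave 0 called members in all 11 comparisons, and it moved the calls over all genes from 124 to 20 for genotype on anle138b and from 55 to 25 on placebo at 10 months. Same-numbered mice correlated at -0.64 to 0.64 in their deviations from the group means. Between the chows the mean correlation was 0.26 and 0.36 in WT mice of 6 and 10 months, and -0.03 and -0.27 in APPPS1ΔE9 mice. In WT mice of 6 months, 3 of 4 mice correlated best with their own number. The labels do not say what equal numbers share, so a pairing of WT mice was not settled. Fits within a lane also gave 0 called members, but say little on lane: lane 4 held 4 placebo-treated and 2 anle138b-treated WT mice of 6 months, and 1 and 5 of 10 months, and lane 5 held 5 and 1 APPPS1ΔE9 mice of 10 months, where the lone mouse is assumed to vary like the others. The covariate from the first principal component was chosen after seeing the data. Over all genes, calls for anle138b in APPPS1ΔE9 mice of 6 months went from 9 to 205 with DESeq2, 120 with no filter and 40 in a single fit of all groups, and for genotype on placebo at 6 months from 12 to 89, 110 and 42, and to 4 with the Y-linked covariate. Calls for anle138b over all mice went from 2 to 40 with lane as a covariate and to 8 with no filter, in WT mice of 6 months from 0 to 50 in the single fit, and for the interaction at 6 months from 0 to 28 with DESeq2. Calls for genotype on anle138b at 6 months went from 8 to 42 with DESeq2 and 53 in the single fit. At 10 months calls for genotype went from 124 to 299 on anle138b and from 55 to 15 on placebo with the Y-linked covariate, and on placebo to 113 with DESeq2, 118 in the single fit and 157 with the principal component. Low counts kept 73 of 118 members out of the test over all mice. In the interactions, 33 of 44 members at 6 months and 29 of 45 at 10 months had an interval within 1 of 0 on the log2 scale.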
